A study of Arabidopsis thaliana with 22 samples.

Results

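Transcript abundance of 3 genes was followed in Arabidopsis roots after the removal of Fe. These, grouped here under the storage of zinc in the vacuole, were MTPa2 (At3g58810), MTPc3 (At3g58060) and ZIF1 (At5g13740). The genes were chosen by name, each has 1 probe set, and they make up 3 of the 22746 probe sets that were tested on the ATH1 array, a microarray on which sets of short oligonucleotides each report the transcript of a gene. MTPa2 and MTPc3 lie on chromosome 3 and ZIF1 on chromosome 5. All 3 also stand in the study's own tables of genes that respond to Fe, which were drawn up from these arrays, so the direction of their change is not independent evidence.

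The study asked which root transcripts respond first when Fe is withdrawn. Plants of the cultivar Landsberg erecta were grown in hydroponic culture, rinsed with EDTA and moved either to Fe-deficient medium or to fresh Fe-sufficient medium, so that the wash and the transfer were common to all 8 groups, and no mutant or transgenic line was among them. Fe-deficient roots were harvested 0, 1, 6 and 24 h after the transfer, with 3 arrays for each of the first 3 times and 2 arrays at 24 h, and Fe-sufficient roots were harvested at the same times with the same numbers of arrays, which gave 22 arrays. Each array stands for roots pooled from several plants of 1 harvest, and batches of Fe-deficient plants had been kept only where their ferric chelate reductase activity had increased by 24 h, which favours plants that responded. The transfer was made early in the light period, so that 0 and 24 h share an hour of the day and 1 and 6 h do not.

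Zinc enters root cells partly through the same transporters that take up ferrous iron, and cells keep free zinc in the cytosol low by moving it into the vacuole. MTPa2, also called MTP3, belongs to the cation diffusion facilitators and carries zinc across the vacuolar membrane in exchange for protons. MTPc3, also called MTP8, belongs to the same family. In Arabidopsis it is best known as a vacuolar transporter of manganese that can also carry Fe. The study instead describes MTPc3 as a carrier that exports zinc across the plasma membrane, a location it treats as hypothetical. Its grouping with zinc storage is thus a label and not a settled role. ZIF1 belongs to the major facilitator superfamily and brings nicotianamine, a chelator of zinc and Fe, into the vacuole.

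Values are deposited linear intensities, and the arrays had a trimmed mean of 500.04 to 500.05 and a median of 181.1 to 210.3. A whole root holds many cell types, and a change in the share of cells that express a gene cannot be told apart from a change in each cell. Of 8 root markers, 2 could be named on the array. PYK10, a root glucosidase, ranged from 8878.5 to 16883.5 and EXPA7, a root hair expansin, from 90.0 to 577.6. Of 8 leaf markers, 2 could be named, RCA and GAPA. Their summed intensity was 78.1 to 174.6 on Fe-deficient arrays and 79.1 to 187.6 on Fe-sufficient arrays. PYK10 thus lay far above the leaf markers on every array. The lowest values of EXPA7 lay below the array medians and within the range of the leaf marker RCA (45.7 to 120.4).

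At the start and 1 h after the transfer the media could not be told apart by any of the 3 genes. MTPa2 had intensities of 438.5, 1880.4 and 676.3 in Fe-deficient roots at 0 h, against 485.7, 1520.4 and 1176.7 in Fe-sufficient roots, listed here and below in the order of the replicate numbers. At 1 h MTPa2 had 345.3, 1346.7 and 964.4 in Fe-deficient roots, against 286.0, 812.1 and 910.4 in Fe-sufficient roots. The spread within each medium was far wider than the difference between media, and the groups overlapped at both times.

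MTPc3 was much lower on the array and varied even more. It had 33.3, 238.5 and 66.1 in Fe-deficient roots at 0 h, against 58.6, 219.4 and 143.5 in Fe-sufficient roots. At 1 h it had 21.3, 234.4 and 198.9 in Fe-deficient roots, against 40.5, 110.8 and 127.7 in Fe-sufficient roots. The groups overlapped again, and the 3 lowest values, all of replicate 1, lay near the intensity of 32 below which 20.1% to 25.7% of the probe sets of each array fell.

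ZIF1 had 1051.3, 558.5 and 362.8 in Fe-deficient roots at 0 h, against 750.3, 645.0 and 393.6 in Fe-sufficient roots. At 1 h it had 1182.9, 576.8 and 617.2 in Fe-deficient roots, against 1318.4, 540.1 and 315.5 in Fe-sufficient roots. In both media and at both times the groups overlapped, and replicate 1 was the highest array.

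All arrays were fitted together with limma on log2 of the intensity plus 1. A gene was called changed where the unadjusted p was under 0.05 and the intensities differed by more than 1.5-fold. These thresholds are the study's own criterion, but the study applied them to arrays normalised with a probe-level model. Here they were applied to the deposited intensities, so the calls need not match the study's lists. The study lists all 3 genes, ZIF1 among them, as increased, and a missing call here is no verdict on that listing. The adjusted p given with each call is limma's, after the method of Benjamini and Hochberg over the whole array. At 0 h the log2 changes, Fe-deficient over Fe-sufficient, were -0.21 for MTPa2, -0.59 for MTPc3 and 0.05 for ZIF1. Those of 1 h were 0.36, 0.27 and 0.30. None of the 3 genes was called at 0 h, where 2.04% of all probe sets were, or at 1 h, where 1.87% were. The 95% intervals were wide, from -1.52 to 1.10 for MTPa2 at 0 h and from -1.50 to 2.05 for MTPc3 at 1 h, and so they did not show that the media were alike. All p-values take their error from the spread among these arrays alone, which the labels call biological replicates.

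**Figure D1:**
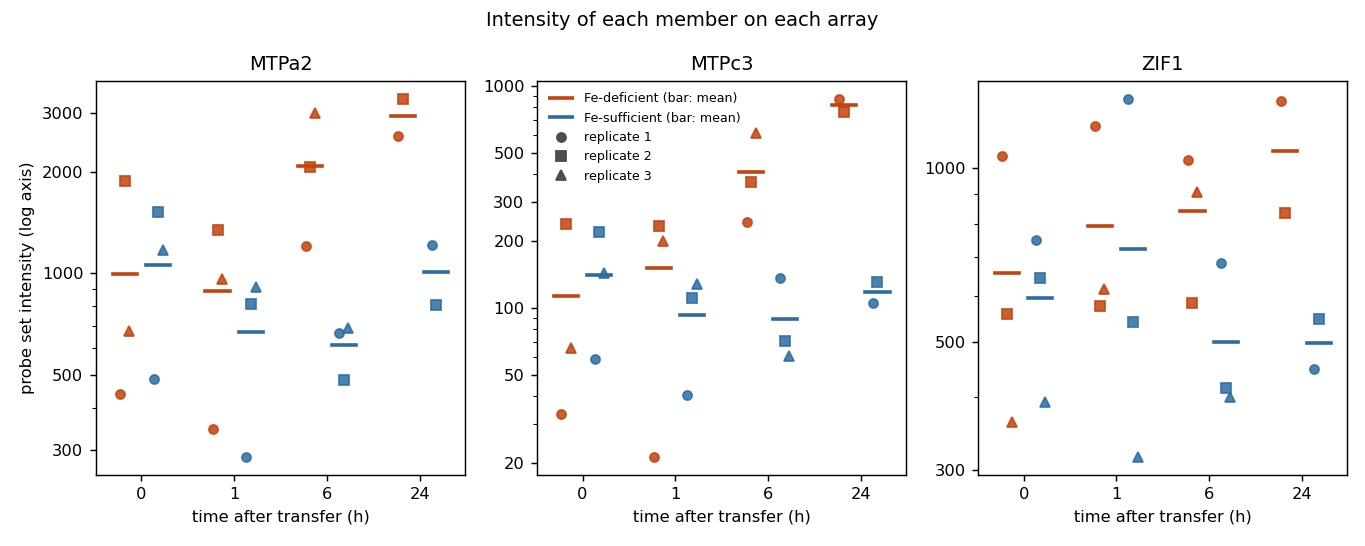
Intensity of MTPa2, MTPc3 and ZIF1 on each array (log axis) by hours after the transfer, with Fe-deficient roots to the left of Fe-sufficient roots at each time, a symbol for each replicate number and a bar at the group mean. At 6 and 24 h every Fe-deficient array of MTPa2 and MTPc3 lies above every Fe-sufficient array of its time, and for ZIF1 this holds at 24 h alone.

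At 6 h MTPa2 and MTPc3 were higher in Fe-deficient roots than in Fe-sufficient roots of the same time. MTPa2 had 1207.0, 2073.0 and 2984.9 in Fe-deficient roots, against 664.1, 484.2 and 691.1 in Fe-sufficient roots. The lowest Fe-deficient array was thus above the highest Fe-sufficient array. The means were 2088 ± 889 in Fe-deficient roots and 613 ± 112 in Fe-sufficient roots (SD, n = 3 each). The log2 change was 1.69 (SE 0.62, 95% interval 0.38 to 3.0), or 3.22-fold, and MTPa2 met the criterion of the study (limma, adjusted p = 1.00).

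MTPc3 had 243.2, 366.6 and 612.5 in Fe-deficient roots at 6 h, against 136.3, 70.5 and 60.6 in Fe-sufficient roots, and here too the groups did not overlap. Its means were 407 ± 188 in Fe-deficient roots and 89.1 ± 41.1 in Fe-sufficient roots (SD, n = 3 each). The log2 change was 2.17 (SE 0.84, 95% interval 0.39 to 3.95), or 4.50-fold, and it was called (limma, adjusted p = 1.00). Counted down from the most positive log2 change, MTPc3 held place 34 and MTPa2 place 146 among all probe sets at 6 h.

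ZIF1 had 1032.7, 582.5 and 907.7 in Fe-deficient roots at 6 h, against 684.6, 415.3 and 400.8 in Fe-sufficient roots. The groups overlapped, because Fe-sufficient replicate 1 was above Fe-deficient replicate 2. The means were 841 ± 232 in Fe-deficient roots and 500.2 ± 160 in Fe-sufficient roots (SD, n = 3 each). The log2 change was 0.75 (SE 0.49, 95% interval -0.28 to 1.79) and was not called (limma, adjusted p = 1.00). With the replicate number as a block within each time, the same estimate had an SE of 0.27 and ZIF1 was called (limma, adjusted p = 1.00). The arrays of 6 h bear out this pairing most clearly for replicate 1. That block called 654 of all probe sets at 6 h in either direction, against 484 without a block.

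At 6 h 2.13% of all probe sets were called, and 0.976% were called higher in Fe-deficient roots. MTPa2 and MTPc3 were thus 2 of the 222 probe sets called higher, and 1.15% were called lower. The groups of a probe set lay apart with Fe-deficient roots higher for 2.75% of all probe sets. After adjustment 2 probe sets passed 0.05, neither of them a member of the 3. The call of MTPa2 was lost without Fe-deficient replicate 3 of 6 h (log2 change 1.38), and that of MTPc3 was lost without the same array (1.82) and without Fe-sufficient replicate 2 (2.05) or 3 (1.94) of 6 h.

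At 24 h MTPc3 showed the widest gap of the time course. It had 871.8 and 758.2 in Fe-deficient roots, against 105.1 and 131.0 in Fe-sufficient roots, with no overlap. Its means were 815 ± 80.3 in Fe-deficient roots and 118 ± 18.3 in Fe-sufficient roots (SD, n = 2 each). The log2 change was 2.78 (SE 1.02, 95% interval 0.61 to 4.96), or 6.88-fold, and it was called (limma, adjusted p = 1.00). Counted down from the most positive log2 change, MTPc3 held place 25 of all probe sets at 24 h.

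MTPa2 had 2549.2 and 3291.9 in Fe-deficient roots at 24 h, against 1212.6 and 807.1 in Fe-sufficient roots. These groups did not overlap, and their means were 2921 ± 525 in Fe-deficient roots and 1009.9 ± 287 in Fe-sufficient roots (SD, n = 2 each). The log2 change was 1.55 (SE 0.76, 95% interval -0.05 to 3.15), or 2.93-fold, which just missed the criterion (limma, adjusted p = 1.00). With the replicate number as a block within each time the same change had an SE of 0.38 and was called (limma, adjusted p = 1.00), although the numbers did not pair the arrays at 24 h.

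ZIF1 had 1306.2 and 835.5 in Fe-deficient roots at 24 h, against 447.9 and 546.6 in Fe-sufficient roots. The groups did not overlap at this time, and the means were 1071 ± 333 in Fe-deficient roots and 497 ± 69.8 in Fe-sufficient roots (SD, n = 2 each). The log2 change was 1.08 (SE 0.60, 95% interval -0.19 to 2.35), or 2.11-fold, and was not called (limma, adjusted p = 1.00). The block within each time gave an SE of 0.33 and a call (limma, adjusted p = 1.00).

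At 24 h 1.47% of all probe sets were called, 0.765% higher and 0.703% lower in Fe-deficient roots, each as a share of the array. The block within each time called 440 probe sets at 24 h in either direction, against 334 without a block. With 2 arrays in a group, 12.1% of all probe sets had groups that lay apart with Fe-deficient roots higher, so that the separation of the 3 genes carries less weight here than at 6 h. At an adjusted p of 0.05 no probe set passed in limma, against 357 at an unadjusted p of 0.05. The call of MTPc3 was lost without Fe-deficient replicate 1 (log2 change 2.68) or Fe-sufficient replicate 1 (2.62) of 24 h, which leaves 1 array in that group, assumed to vary like the other groups. The summed leaf markers were 78.1 to 109.3 in Fe-deficient roots and 111.7 to 187.6 in Fe-sufficient roots at 24 h. Among them GAPA, a photosynthetic enzyme, was called lower (log2 change -1.53, SE 0.38), and RCA was not called (-0.19, SE 0.42). GAPA also stands in the study's tables of genes that respond to Fe, which were drawn up from these arrays. At 1 h GAPA was called higher in Fe-deficient roots (0.66, SE 0.31). The part of these markers in the results was not tested. MTPc3 alone was called higher at both 6 and 24 h, as were 0.132% of all probe sets.

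**Figure D2:**
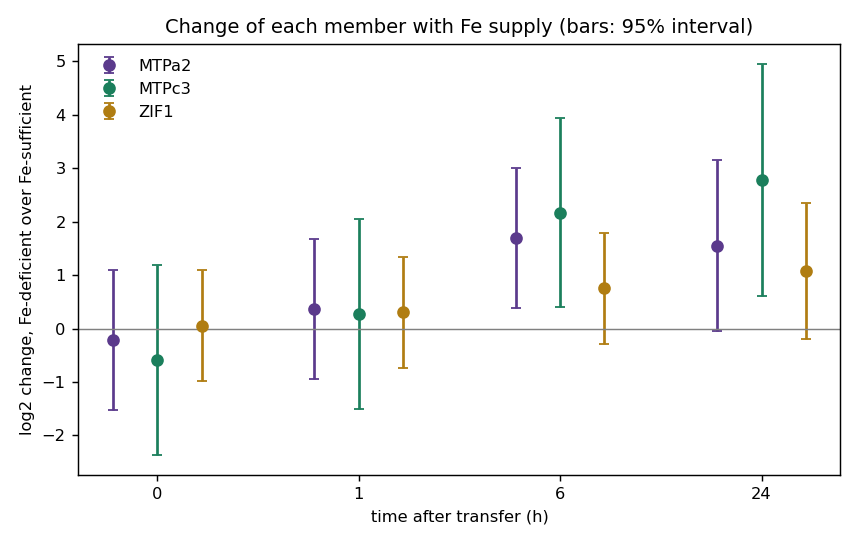
Log2 change of MTPa2, MTPc3 and ZIF1, Fe-deficient over Fe-sufficient roots, at each time after the transfer, with points for the limma estimate and bars for its 95% interval. The intervals of MTPa2 at 6 h and of MTPc3 at 6 and 24 h lie above 0, and those of ZIF1 include 0 at every time.

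Whether the effect of the medium grew with time was tested as a contrast of its own, the mean log2 change of 6 and 24 h minus that of 0 and 1 h. It was 1.54 (SE 0.65) for MTPa2 and 2.64 (SE 0.89) for MTPc3, and both were called (limma, adjusted p = 1.00 each), where 1.61% of all probe sets were called and 0.567% were called with a growing difference. For ZIF1 it was 0.74 (SE 0.52) and was not called (limma, adjusted p = 1.00), but it was called with the block within each time (SE 0.29, adjusted p = 1.00). Counted down from the most positive value of this contrast, MTPc3 held place 7 of all probe sets. The call of MTPa2 was lost, at values of 1.26 to 1.47, without Fe-deficient replicate 1 of 0 h, replicate 1 of 1 h, replicate 3 of 6 h or replicate 2 of 24 h, and without Fe-sufficient replicate 2 or 3 of 0 h, replicate 2 or 3 of 1 h, replicate 2 of 6 h or replicate 2 of 24 h. That of MTPc3 held whichever of the 22 arrays was left out.

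Between single harvests the growth was less certain. The log2 change at 6 h exceeded that at 1 h by 1.33 (SE 0.87) for MTPa2, by 1.90 (SE 1.18) for MTPc3 and by 0.45 (SE 0.69) for ZIF1. None of these was called (limma, adjusted p = 1.00 each), where 2.18% of all probe sets were. With the block within each time MTPa2 and MTPc3 were called (SE 0.44 and 0.71, adjusted p = 1.00 each). From 6 to 24 h the log2 change differed by -0.14 (SE 0.98) for MTPa2, 0.61 (SE 1.32) for MTPc3 and 0.32 (SE 0.77) for ZIF1, none of them called, beside 1.48% of all probe sets. An F-test of the medium over the 4 times gave F = 3.04 for MTPa2, 3.68 for MTPc3 and 1.501 for ZIF1 (limma, adjusted p = 1.00 each). The unadjusted p was under 0.05 for MTPa2 and MTPc3, as for 1.86% of all probe sets, and above it for ZIF1, which passed with the replicate block over all times (F = 3.49) and within each time (F = 4.84).

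The levels of the 3 genes in the 8 groups were ordered alike at the top. Fe-deficient roots of 24 h were highest and those of 6 h next for MTPa2, MTPc3 and ZIF1. For MTPc3 neither of these groups overlapped the group below it in the order, since the arrays of 24 h began at 758.2, those of 6 h ran from 243.2 to 612.5, and the next group, Fe-deficient roots of 1 h, ended at 234.4. For MTPa2 and ZIF1 every group overlapped its neighbour in the order. At the low end stood Fe-sufficient roots of 6 h for MTPa2 and MTPc3 and Fe-sufficient roots of 24 h for ZIF1.

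Against the start of the experiment, calls were made in Fe-deficient roots for MTPc3 and MTPa2. MTPc3 exceeded its level of 0 h by a log2 change of 2.21 (SE 0.84) after 6 h and of 3.31 (SE 0.94) after 24 h, and both were called (limma, adjusted p = 0.662 at 6 h and adjusted p = 0.453 at 24 h). MTPa2 was higher by 1.25 (SE 0.62) at 6 h, which was not called (limma, adjusted p = 0.877), and by 1.81 (SE 0.69) at 24 h, which was called (adjusted p = 0.853). Its value at 6 h was called with the replicate number as a block over all times (limma, SE 0.49, adjusted p = 0.527) and under further alternatives given below. ZIF1 differed by 0.45 at 6 h and 0.81 at 24 h, and neither was called. At 6 and 24 h 4.31% and 4.13% of all probe sets were called against 0 h in Fe-deficient roots, and 1.83% and 1.33% of all were called higher. At 1 h, where 3.44% of all were called, none of the 3 genes was. The call of MTPc3 at 6 h was lost without Fe-deficient replicate 1 of 0 h (1.59) or replicate 3 of 6 h (1.87), and that of MTPa2 at 24 h without Fe-deficient replicate 1 of 0 h (1.36) or replicate 2 of 24 h (1.63).

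In Fe-sufficient roots none of the 3 genes was called at 1, 6 or 24 h against 0 h, where 2.97%, 4.59% and 2.86% of all probe sets were. The log2 changes of MTPa2 were -0.68, -0.66 and 0.05 at these times, those of MTPc3 were -0.56, -0.55 and -0.07, and those of ZIF1 were 0.08, -0.25 and -0.22. With the arrays of replicates 2 and 3 alone, MTPa2 and MTPc3 were called lower at 6 h than at 0 h in these roots (log2 changes of -1.21 and -1.43). The comparisons over time within a medium share the arrays of 0 h. Whether the courses of the media differ is answered by the growth of the effect of the medium given above.

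Much of the spread at 0 and 1 h followed the replicate number. Replicate 1 was the lowest array of MTPa2 in 4 of the 4 groups of these times, and the mean of replicates 2 and 3 was 2.78 to 3.35 times its value. It was also the lowest array of MTPc3 in 4 of 4 groups, by 2.94 to 10.2 times, and the highest array of ZIF1 in 4 of 4 groups, at 1.44 to 3.08 times the mean of the other arrays. At these times the difference was present in both media.

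At 6 h replicate 1 was again the lowest array of MTPa2 and MTPc3 in Fe-deficient roots, at 0.477 and 0.497 times the mean of the others, but in Fe-sufficient roots it was the middle array of MTPa2 (1.13 times) and the highest of MTPc3 (2.08 times). For ZIF1 it was the highest in both media.

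The media were also compared within each replicate number. For MTPa2 the ratio of Fe-deficient over Fe-sufficient intensity was 0.903, 1.24 and 0.575 at the start, 1.21, 1.66 and 1.06 at 1 h, 1.82, 4.28 and 4.32 after 6 h, and 2.10 and 4.08 at 24 h. For MTPc3 it was 0.568, 1.09 and 0.461 at the start, 0.526, 2.12 and 1.56 at 1 h, 1.78, 5.20 and 10.1 after 6 h, and 8.29 and 5.79 at 24 h. For ZIF1 it was 1.40, 0.866 and 0.922 at the start, 0.897, 1.07 and 1.96 at 1 h, 1.51, 1.40 and 2.26 after 6 h, and 2.92 and 1.53 at 24 h. At 6 h all 3 numbers gave a ratio above 1 for each gene, and replicate 1 gave the smallest ratio for MTPa2 and MTPc3. At 24 h the replicate numbers did not pair the arrays, so that these ratios depend on which arrays are set together.

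With the arrays of replicates 2 and 3 alone, a choice made after replicate 1 had been seen to stand apart, the log2 change at 6 h was 2.10 for MTPa2, 2.84 for MTPc3 and 0.83 for ZIF1. MTPa2 and MTPc3 were called (limma, adjusted p = 0.859 and adjusted p = 0.727), and ZIF1 was not (adjusted p = 1.00). At 24 h, where this left 1 array in each medium, the log2 changes were 2.03 for MTPa2, 2.52 for MTPc3 and 0.61 for ZIF1, which are the ratios of replicate 2.

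**Figure D3:**
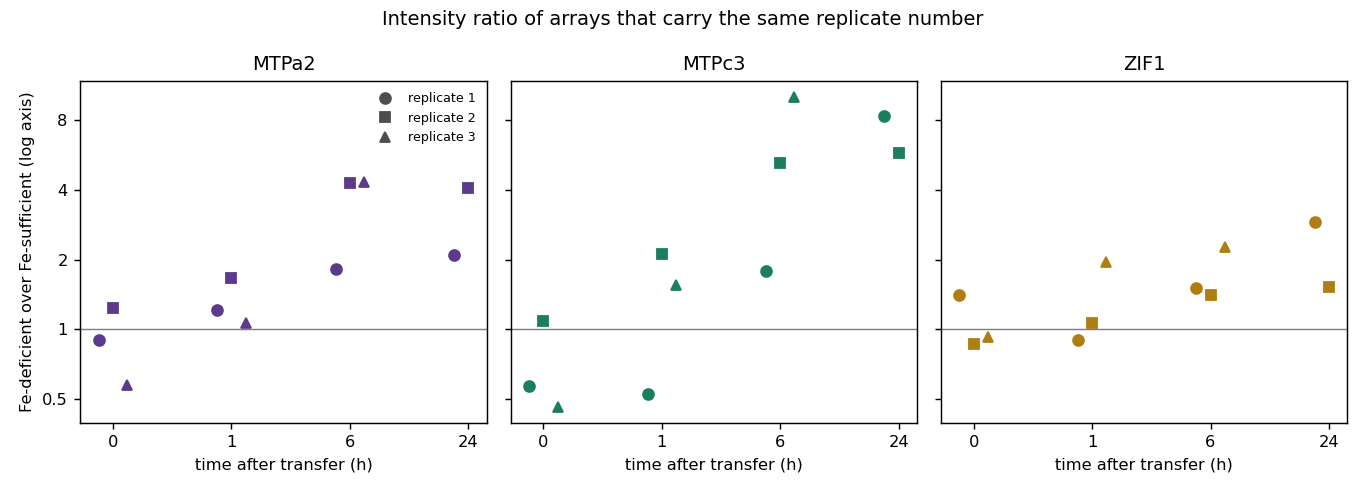
Ratio of Fe-deficient over Fe-sufficient intensity (log axis) for arrays of the same replicate number, by hours after the transfer, with a line at 1. At 6 h the ratios are 1.82 to 4.32 for MTPa2, 1.78 to 10.1 for MTPc3 and 1.40 to 2.26 for ZIF1.

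The sizes of the changes were compared in 3 pairs of genes. The mean log2 change of 6 and 24 h differed most between ZIF1 and MTPc3, with a difference, ZIF1 minus MTPc3, of -1.56 (exact permutation test, two-sided, arrays exchanged between media within each time, n = 10, p = 0.0167, adjusted p = 0.05 over 3 pairs), and this p is the smallest that the 120 assignments can give. With arrays exchanged only within replicate numbers at 6 h, where the numbers pair them, the exact permutation test has 48 assignments and gave p = 0.0417, the smallest it allows (adjusted p = 0.125, as for the other pairs), an exchange chosen after the data had been seen. Over the 120 assignments MTPc3 exceeded MTPa2 by 0.86 (exact permutation p = 0.0667, adjusted p = 0.1) and ZIF1 differed from MTPa2 by -0.70 (exact permutation p = 0.1, adjusted p = 0.1). No pair passed an adjusted p under 0.05. Equal differences of log2 intensity need not mean equal differences of transcript, since probe sets differ in background.

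Across the arrays MTPa2 and MTPc3 moved together, and ZIF1 did not follow them. Pearson's r of log2 values over 22 arrays was 0.95 for MTPa2 and MTPc3 (Spearman's rho 0.92), -0.02 for MTPa2 and ZIF1 and 0.09 for MTPc3 and ZIF1. The arrays form groups of medium and time, so that these values mix the effect of the medium with the spread between replicates. Over deviations from the group means, where the effect of the medium is taken out, r was 0.91 for MTPa2 and MTPc3, -0.63 for MTPa2 and ZIF1 and -0.50 for MTPc3 and ZIF1. These values are descriptions, and the arrays within them share replicate numbers.

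**Figure D4:**
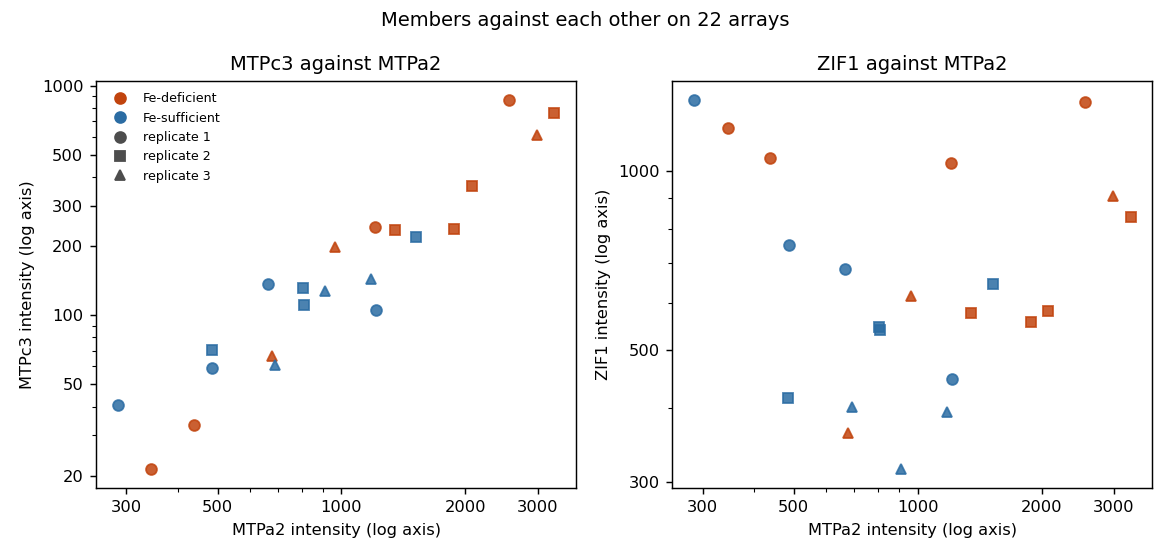
Intensity of MTPc3 (left) and ZIF1 (right) against that of MTPa2 on 22 arrays (log axes), with colours for the medium and symbols for the replicate number. MTPc3 lies along a rising band with MTPa2 (r = 0.95 of log2 values), and ZIF1 shows no common band (r = -0.02).

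The genes most like each member were taken from 6061 or 6062 probe sets that were named with a single gene and lay above the median level, by Pearson's r over the 22 arrays. For MTPa2 these were FRO3, which encodes a ferric chelate reductase of the mitochondrion (r = 0.96), At5g38820, listed as an amino acid transporter (0.93), At1g74770 (0.93), At3g61410 (0.92) and IRT1, the main Fe uptake transporter of the root (0.92). For MTPc3 they were MTPa2 (0.95), FRO3 (0.94), At1g74770 (0.92), At5g38820 (0.92) and At3g61930 (0.90). All of these stand in the study's tables of genes responsive to Fe, which alone gave FRO3, IRT1 and MTPa2 their names here. All were called higher in Fe-deficient roots at 6 h, as were 0.976% of all probe sets. A likeness measured over arrays that include the effect of the medium picks such genes, so that nothing is read from this count. Over deviations from the group means the r of these genes was 0.85 to 0.95 with MTPa2 and 0.83 to 0.91 with MTPc3, each for its own 5.

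ZIF1 had other companions. The genes most like it were LYC, a lycopene cyclase of carotenoid synthesis (r = 0.83), ACLA-3, a subunit of ATP citrate lyase (0.83), At3g18430 (0.80), At1g44770 (0.80) and At3g44100 (0.79). None of these was called at 6 or 24 h, with log2 changes of -0.01 to 0.39 at 6 h, and over deviations from the group means their r with ZIF1 was 0.83 to 0.92. Over the 8 group means their r was 0.46 to 0.84. Chosen by the group means instead, the 5 most like genes were mostly others, with 2, 2 and 0 shared with those named for MTPa2, MTPc3 and ZIF1.

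Other members of the metal transport families were looked at beside the 3 genes. Of 10 other cation diffusion facilitators, the family of MTPa2 and MTPc3, 7 had a named probe set, and 0 of them were called in either direction at 0, 1, 6 or 24 h, where 2.04%, 1.87%, 2.13% and 1.47% of all probe sets were. With 7 genes a count of 0 is near these shares. Their median log2 change was 0.01 at both 6 and 24 h, against -0.02 and 0.00 over all probe sets. MTP11, a manganese transporter of the Golgi and its vesicles, had the highest value at 6 h (0.15, SE 0.25). Its means were 987 ± 177 in Fe-deficient roots and 903 ± 241 in Fe-sufficient roots (SD, n = 3 each). MTP2 had the lowest value (-2.11, SE 1.40), but its means were 10.4 ± 7.64 in Fe-deficient roots and 76.2 ± 82.7 in Fe-sufficient roots (SD, n = 3 each), at the low end of the array.

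Of 15 uptake transporters of the ZIP family, 5 could be named, 3 of them from the study's tables. IRT1, which carries zinc and manganese as well as Fe, was called higher at 6 h, with means of 2920 ± 706 in Fe-deficient roots and 699 ± 422 in Fe-sufficient roots (SD, n = 3 each). IRT1 gave a log2 change of 2.25 (SE 0.89) here and of 1.57 (SE 1.09) at 24 h, where the criterion was not met. ZIP3, a zinc transporter, was called lower at both times. It had means of 4943 ± 630 in Fe-deficient roots and 8287 ± 1168 in Fe-sufficient roots at 6 h (SD, n = 3 each), and the log2 changes were -0.74 (SE 0.30) at 6 h and -1.47 (SE 0.37) at 24 h. Thus 1 of 5 was called higher and 1 of 5 lower at 6 h, and 0 of 5 higher and 1 of 5 lower at 24 h. Over all probe sets the shares called higher and lower were 0.976% and 1.15% at 6 h and 0.765% and 0.703% at 24 h, but IRT1, IRT2 and ZIP3 stand in tables that the study chose on these arrays. With the replicate block within each time 2 of 5 were called higher at both times. That fit called 654 probe sets at 6 h and 440 at 24 h, in either direction. Pseudocounts of 16 and 64 gave 2 of 5 higher at 6 h and 1 of 5 at 24 h. The count called higher differed from the main fit under 5 of 7 alternatives at 6 h and 4 of 7 at 24 h. BZIP19, a transcription factor of the zinc deficiency response, was the 1 member of 6 zinc exporters and regulators that could be named, and its log2 changes of 0.21 at 6 h and 0.30 at 24 h were not called.

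Of 14 other metal transporters of the vacuole, 4 could be named, all from the study's tables, so that their calls are no independent evidence. NRAMP4, which releases Fe and manganese from the vacuole, was called higher, with log2 changes of 0.78 (SE 0.21) at 6 h and 0.80 (SE 0.25) at 24 h. IREG2, which loads nickel and cobalt into the vacuole, had 0.41 (SE 0.32) at 6 h, which was not called, and 0.90 (SE 0.39) at 24 h, which was. VTL1 and VTL5, which are related to the vacuolar Fe importer VIT1, were called lower, VTL1 by -1.87 (SE 0.65) and VTL5 by -1.35 (SE 0.52) at 6 h, and by -2.44 (SE 0.79) and -1.49 (SE 0.64) at 24 h. These 4 transporters thus did not move in 1 direction.

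Of 8 transcription factors and ligases of the Fe deficiency response, 6 could be named, 5 of them from the study's tables, and those 5 were called higher at both 6 and 24 h, as were 0.132% of all probe sets. The tables were drawn up from these arrays, so that this count is no independent evidence. BHLH039, a partner of FIT, and BHLH101 had the largest log2 changes at 6 h, 2.33 (SE 0.68) and 2.38 (SE 0.81). FIT, which activates IRT1, had 0.86 (SE 0.29), PYE, a repressor in the same network, had 0.62 (SE 0.20), and BTS, a ligase that binds Fe, had 0.73 (SE 0.27). ILR3, which dimerises with related factors, had 0.17 (SE 0.14) and was not called. A list of 6 relatives of ZIF1 and nicotianamine synthases had 0 named probe sets and was not analysed here.

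**Figure D5:**
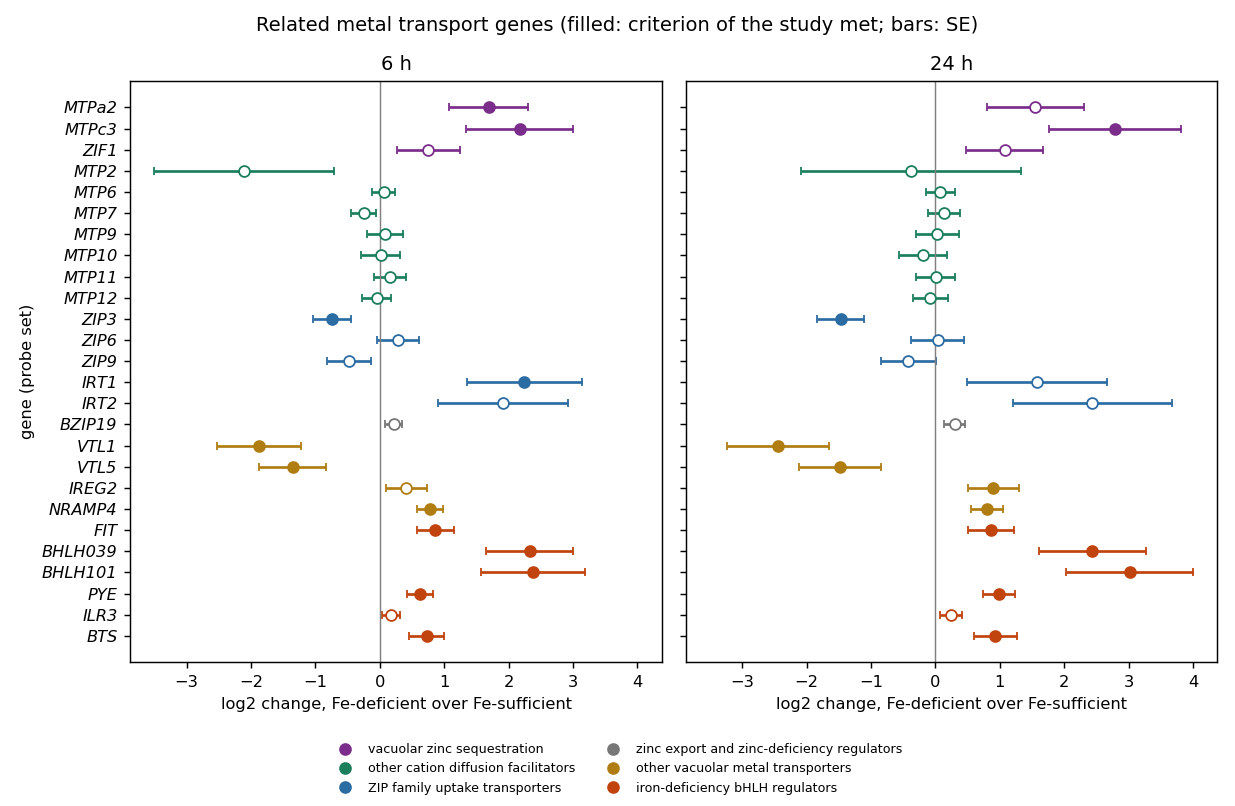
Log2 change, Fe-deficient over Fe-sufficient roots, at 6 h (left) and 24 h (right) for the 3 genes and the named members of related lists, with bars for the SE and filled points where the criterion of the study was met. MTPa2 (1.69) and MTPc3 (2.17) are filled at 6 h, and no other cation diffusion facilitator is filled at either time.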

How the data were processed

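The authors hybridised total root RNA to ATH1 arrays and deposited, for each array, 1 intensity on a linear scale per probe set. AffylmGUI with a robust probe-level model, the software of their methods, returns values in log2, and the program that made the deposited intensities is not given in the sources used here. The arrays share a mean after trimming 2% at each end, so they had been scaled, and the number of arrays limits the precision. Of 22810 probe sets, 64 controls were left out.

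Values were analysed as log2(intensity + 1) with limma 3.58.1 (functions lmFit, contrasts.fit and eBayes, R 4.3.3). One model held the 8 groups and no block, and had 14 residual degrees of freedom and 1.81 prior ones. No filter on low values was applied, so the 3 genes were tested with all others. The same steps were tested on simulated data, drawn independently for each array. Those data held no effect of the replicate number, so the test does not show how the fits deal with it. Replicates correlated by 0.92 to 0.95 in log2 values over all probe sets, and no pair shared more than 70 equal values.

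The replicate numbers come from the labels. Between the media, same-numbered arrays deviated together from their group means at 0, 1 and 6 h (correlations of 0.12 to 0.45). They were taken as pairs at those times, but not at 24 h (-0.41). Arrays of different numbers gave -0.30 to 0.10 at 0, 1 and 6 h, and 0.41 at 24 h. With 2 arrays in each group the deviations of 24 h mirror each other, so its values for equal and for different numbers are opposites by construction. The labels do not say whether the 24 h numbers were crossed between the media. Replicate 1 stood out most, at 0.40 to 0.45 with its own number. At 6 h replicate 3 gave 0.12 with its own number and 0.10 with replicate 2, so its pairing is weakly borne out. The model reported has no block, and the fits with the number as a block, which also pair the arrays of 24 h, are given beside it.

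The array annotation named 13513 probe sets and the tables printed by the study a further 37. Symbols follow the TAIR10.1 annotation, and 9196 probe sets were not named. The genes named are the 3 members, the 5 most like each of them, and, of each related list, those that met the criterion at 6 or 24 h with the largest and smallest log2 change at 6 h. The members and lists were chosen with earlier results of these data known. Sequences of promoters and proteins were not used here. The alternatives were pseudocounts of 16 and 64, a filter on a mean intensity of 32, quantile normalization, centring on the median, 2 replicate blocks, an intensity trend, each array left out and a fit of 2 groups per time. A block with the 24 h numbers crossed, an exchange of arrays within replicate numbers and the arrays of replicates 2 and 3 alone were added after the data had been seen.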

Additional observations from a re-analysis of the deposited data

Results flagged for a closer look

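In a test of the difference itself, the effect of Fe deficiency on MTPa2 and on MTPc3 met the criterion of the study for a difference between early and late harvests. So did 1.61% of all probe sets, and 0.567% of all did so with a growing difference. The call of MTPa2 was lost without any 1 of 10 arrays, and that of MTPc3 held whichever array was left out. The mean log2 change of 6 and 24 h exceeded that of 0 and 1 h by 1.54 (SE 0.65) for MTPa2 and by 2.64 (SE 0.89) for MTPc3 (limma, both called by the criterion of the study). Neither passed 0.05 after adjustment over all probe sets (adjusted p = 1.00 each).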

How the results depend on the processing

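The direction of the Fe effect on MTPa2, MTPc3 and ZIF1 at 6 and 24 h was the same under every alternative run, and no adjusted p of these effects fell under 0.05. Calls by the criterion of the study were less stable, since many p-values lay close to 0.05. MTPa2 at 24 h became called with pseudocounts of 16 (1.53) and 64 (1.49), with both replicate blocks, an intensity trend and the 2-group fit (1.55 each). Replicates 2 and 3 alone gave it 2.03, but with 1 array in each medium and an error taken from the other groups. MTPa2 at 6 h against 0 h in Fe-deficient roots became called with a pseudocount of 64 (1.17), the replicate block over all times and the trend (1.25 each) and replicates 2 and 3 alone (1.14). With either replicate block ZIF1 became called at 6 h (0.75), at 24 h (1.08) and in the growth of the effect (0.74), and its F-test passed 0.05 unadjusted (F = 3.49 over all times and 4.84 within times). ZIF1 at 24 h was also called in the 2-group fit (1.08). The excess of 6 h over 1 h became called with the block within each time for MTPa2 (1.33) and MTPc3 (1.90), and with replicates 2 and 3 alone (1.70 and 1.98). With those arrays MTPa2 and MTPc3 were also called lower at 6 h than at 0 h in Fe-sufficient roots (-1.21 and -1.43). Centring on the median brought the F-test of MTPa2 to an unadjusted p just above 0.05 (F = 3.001), and quantile normalization a difference of MTPc3 from MTPa2 of 0.88 (exact permutation p = 0.0333). Exchanging arrays only within replicate numbers at 6 h, chosen after the data had been seen, left the unadjusted side of 0.05 of all 3 differences between genes as it was. The causes were not tested. The block within each time takes up differences between times and gave no value for comparisons with 0 h. With the 24 h numbers crossed, the block called 735 probe sets at 6 h and 476 at 24 h, against 484 and 334 without a block. The uncrossed blocks, which gave the calls above, called 594 and 402 over all times and 654 and 440 within each time. Counts with a block are given for the media at each time alone, and not for the growth of the effect. With a pseudocount of 64 the counts fell to 72 at 6 h and 79 at 24 h. The filter on mean intensity also gave fewer calls at both times. The shares of all probe sets set beside the calls thus hold for the main fit and depend on the processing.

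Leaving out each array in turn gave log2 changes of 1.38 to 2.04 for MTPa2 and 1.82 to 2.52 for MTPc3 at 6 h, and of 1.26 to 1.84 and 2.62 to 2.94 at 24 h, where a group left with 1 array is assumed to vary like the others. MTPa2 at 24 h became called without Fe-deficient replicate 1 or 2 of 0 h or replicate 1 of 1 h, and without Fe-sufficient replicate 1 of 0 or 1 h. The growth of the effect on MTPa2 was 1.26 to 1.84, and its excess of 6 h over 1 h was 0.75 to 1.86, called without Fe-sufficient replicate 1 of 1 h. In Fe-deficient roots against 0 h, MTPa2 gave 0.79 to 1.84 at 6 h, called without Fe-deficient replicate 2 of 0 h, replicate 1 of 1 h or replicate 1 of 6 h or Fe-sufficient replicate 1 of 1 h, and 1.36 to 2.41 at 24 h. MTPc3 gave 1.59 to 2.99 at 6 h, and ZIF1 gave 0.45 to 1.21 at 24 h, called without Fe-deficient replicate 1 of 0 h. The F-test gave F = 2.17 to 4.10 for MTPa2, with an unadjusted p above 0.05 without any 1 of 14 arrays (all of 24 h, all of 6 h but Fe-deficient replicate 1, Fe-deficient replicate 3 of 0 and 1 h, and Fe-sufficient replicates 2 and 3 of 0 h and 2 of 1 h), and F = 2.75 to 6.90 for MTPc3, above 0.05 without any array of 24 h, Fe-deficient replicate 3 of 6 h or Fe-sufficient replicate 2 or 3 of 6 h. The difference between MTPc3 and MTPa2 was 0.63 to 1.08, with an exact permutation p of 0.0167 without Fe-sufficient replicate 1 of 6 h. Over all alternatives its lowest value was 0.38. Under a pseudocount of 64 the log2 change at 6 h was 1.58 for MTPc3 and 1.59 for MTPa2. At 24 h that pseudocount gave 2.27 for MTPc3 and 1.49 for MTPa2. The size of the change of MTPc3, which had low intensities, thus depended on the pseudocount, and its places among all probe sets hold for the main fit.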
